A study of Mus musculus with 9 samples.

Results

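The Rtl1-antisense microRNAs (miRNAs) are a maternally expressed group from the Dlk1-Dio3 imprinted domain of mouse chromosome 12. Members were the mouse probes of a NanoString nCounter panel whose name, without arm suffix, is mmu-miR-127, mmu-miR-136, miR-337, miR-431, mmu-miR-433, miR-434, miR-540 or miR-665, which gave 11 probes of 566 mouse miRNA probes. The nCounter method counts single barcoded reporter molecules hybridised to each miRNA, with no amplification and no sequencing. Whole lungs of C57BL/6 mouse embryos at E18.5 (days of embryonic development, close to birth) were profiled, 4 labelled Bim3'UTRmut/mut (mutants 6 to 9, homozygous for a mutated 3′ untranslated region of the pro-apoptotic gene Bim) and 5 labelled wild type (wild types 1 to 5), with 100 ng of total RNA per sample. The tissue is whole lung with all its cell types, and the labels name no treatment, litter or sex. The lane table's comment entry gives wild type 5 as a mutant, against its sample label. Labels were followed.

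In the imprinted domain, the paternal chromosome expresses the protein-coding genes Dlk1, Rtl1 and Dio3, and the maternal chromosome expresses non-coding RNAs that carry many miRNAs. Rtl1, a retrotransposon-derived gene known for its role in the fetal capillaries of the mouse placenta, has a maternal transcript running antisense to it. Because miRNAs cut from that antisense RNA match the Rtl1 mRNA in full, several of them guide its cleavage, which silences Rtl1 in trans. In the rat, miR-127 has been described as prominent in the fetal lung, where it affected branching in organ culture. Rtl1 mRNA was not on the panel.

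RefSeq (GRCm38.p6) places all 8 precursors inside the annotated Rtl1 gene, on the plus strand within 9600 bases, chr12:109585789-109595388. Their order is miR-337, miR-540, miR-665, miR-431, miR-433, miR-127, miR-434 and miR-136. Gaps of 194 and 167 bases separate the first 3, and 4039 bases separate miR-665 from miR-431. The probe name gives the arm for 6 of the 11 members. The probes of miR-127, miR-136, miR-431, miR-433 and miR-665 carry no arm in their names, and miRBase, as background and not from the deposited files, places miR-127, miR-433 and miR-665 on the 3p arm and miR-136 and miR-431 on the 5p arm. The mature sequences of the 5 precursors that gave a signal are shown from 5′ to 3′ in chromosomal order, both arms of each, with the seed (bases 2 to 8, the main determinant of target pairing) in capitals.
miR-431-5p: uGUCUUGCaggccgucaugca
miR-431-3p: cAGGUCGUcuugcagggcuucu
miR-433-5p: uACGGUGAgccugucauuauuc
miR-433-3p: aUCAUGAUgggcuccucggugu
miR-127-5p: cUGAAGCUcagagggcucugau
miR-127-3p: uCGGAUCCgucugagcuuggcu
miR-434-5p: gCUCGACUcaugguuugaacca
miR-434-3p: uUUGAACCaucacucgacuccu
miR-136-5p: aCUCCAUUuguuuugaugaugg
miR-136-3p: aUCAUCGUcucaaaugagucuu
Their precursors lie on the plus strand at chr12:109590447-109590537 (miR-431), chr12:109591715-109591838 (miR-433), chr12:109592846-109592915 (miR-127), chr12:109594506-109594599 (miR-434) and chr12:109595327-109595388 (miR-136). No seed was shared among the 16 arms of the 8 precursors, so the group is joined by its transcript and not by a common seed. Of these arms, 1 (miR-540-3p) shares its seed with another mouse miRNA in the RefSeq table.

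Mouse miRNA probes summed to 206964 to 289227 counts per sample. A probe was called above background in a sample if its count lay more than 2 SD over the average of the lane's 8 negative controls. This threshold ran from 56.3 to 197.5 counts. The lanes of mutant 6, wild type 2 and wild type 5 had the 3 highest thresholds. Mutant 8 and wild type 3 went against the tissue in their labels. Cardiac miR-208a had 1271 counts in mutant 8 and 1202 in wild type 3, above 500 counts, against 15 to 54 counts in the other 7 samples. The 6 cardiac muscle probes summed to 29860 counts in mutant 8 and 22798 in wild type 3, against 308 to 526 in the other 7 samples. The 5 epithelial probes of the miR-200 family summed to 1033 and 548 counts in mutant 8 and wild type 3, against 6573 to 8144 in the other mutants and 6490 to 8695 in the other wild types. No cardiac or epithelial probe was at 0 in any sample. Genotype fold changes of the members and differences in their ratios are given with and without these 2 samples. Ranks and the genotype values of the other Dlk1-Dio3 miRNAs rest on all 9 samples.

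Of the 11 members, 6 passed the filter (above background in at least 4 samples), as did 189 of all 566 mouse probes. They were miR-431, miR-433, miR-127, miR-434-5p, miR-434-3p and miR-136, from 5 precursors. The probes of the 3 precursors at the other end of the transcript, miR-337, miR-540 and miR-665, did not pass. Of these, miR-337-3p exceeded its threshold in 1 sample (57 counts in wild type 1, against a threshold of 56.3), and miR-337-5p, miR-540-3p, miR-540-5p and miR-665 in none. Counts over the 9 samples were 47 to 88 for miR-337-3p, 24 to 55 for miR-337-5p, 21 to 37 for miR-540-3p and 8 to 25 for miR-540-5p. Their counts followed the lane. miR-665 had 116 counts in mutant 6 and 116 in wild type 2, its highest count in wild type 5, and 31 to 53 counts in the other 6 samples. The RNAs of mutant 6, wild type 1 and wild type 5 had been run in a second lane, and over these pairs the 5 probes gave the higher count in the lane of higher background in 14 of 15 comparisons. For miR-665 these counts were 116 and 55 in mutant 6 and 102 and 31 in wild type 1, with the higher-background lane first. By this threshold, levels of these 5 probes could not be told from background, and no genotype difference was tested for them.

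**Figure D1:**
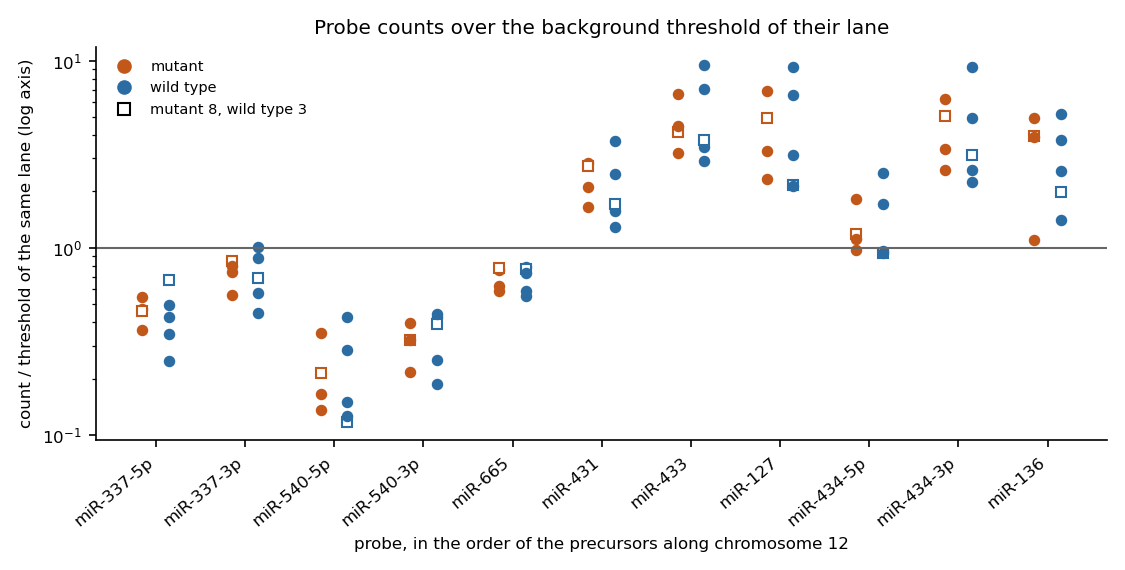
Count of each of the 11 probes divided by the background threshold of its lane (log axis), with probes in chromosomal order, mutants left and wild types right in each column, and open squares for mutant 8 and wild type 3. Probes of miR-337, miR-540 and miR-665 lie below 1 except miR-337-3p in wild type 1, while miR-431, miR-433, miR-127, miR-434-3p and miR-136 lie above 1 in all 9 samples.

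Among the 6 probes above background, counts were highest for miR-433, miR-127 and miR-434-3p. Probes can differ in efficiency, so this order is one of counts and not of molecules. By mean CPM (counts scaled to an equal total over the 189 kept probes, with the TMM correction for composition), miR-433 was number 65 of 189, miR-127 number 71, miR-434-3p number 72, miR-136 number 88, miR-431 number 109 and miR-434-5p number 146. The 6 probes together held 0.571% to 0.705% of mouse miRNA counts in the mutants, against 0.454% to 0.799% in the wild types. Mutant 8 and wild type 3 had the lowest share of their genotype.

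miR-433 was at 1902, 1716, 1142 and 1610 CPM in mutants 6 to 9, against 2058, 1989, 1538, 1934 and 2030 CPM in wild types 1 to 5. The groups overlapped, with the lowest values in mutant 8 and wild type 3. miR-127 was at 1384, 1795, 1366 and 1177 CPM in mutants 6 to 9, against 1996, 1801, 886, 1808 and 1499 CPM in wild types 1 to 5. The groups again overlapped, and wild type 3 was lowest. miR-434-3p was at 1553, 1617, 1396 and 1213 CPM in mutants 6 to 9, against 2015, 1485, 1287, 1354 and 1573 CPM in wild types 1 to 5, with wild type 1 highest and mutant 9 lowest. Counting error, the square root of the count, was 4.18% to 6.24% of the count for miR-433, 4.39% to 8.22% for miR-127 and 4.37% to 6.82% for miR-434-3p.

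miR-136, whose precursor is the last in the group, was at 659, 1284, 1087 and 1400 CPM in mutants 6 to 9, against 1129, 1465, 820, 1033 and 988 CPM in wild types 1 to 5. It was lowest in mutant 6 and wild type 3. miR-431, which is known to act on Pax7 in mouse muscle progenitors, was at 988, 741 and 757 CPM in mutants 6 to 8 and level with mutant 8 in mutant 9, against 809, 903, 706, 682 and 907 CPM in wild types 1 to 5. Its highest values fell in the 3 lanes of highest background. miR-434-5p was at 580, 472, 326 and 401 CPM in mutants 6 to 9, against 547, 383, 473 and 655 CPM in wild types 2 to 5, with wild type 1 level with wild type 2. It exceeded its threshold in 3 mutants and 2 wild types only, so its values lie nearest to background among the 6.

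**Figure D2:**
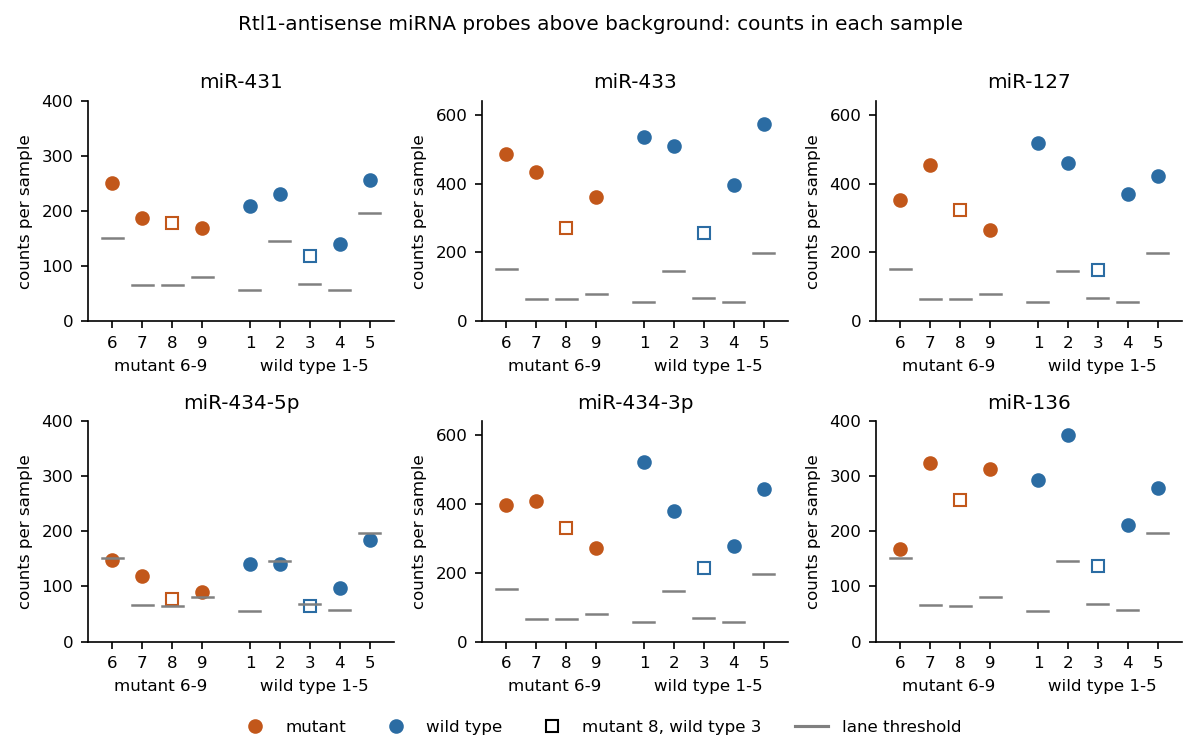
Counts of the 6 probes above background in each sample, mutants 6 to 9 left and wild types 1 to 5 right. Grey bars mark the background threshold of each lane, and open squares mark mutant 8 and wild type 3. The genotypes overlap in every panel, and wild type 3, which also had the fewest miRNA counts in all, is lowest for each of the 6 probes.

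The comparison of genotypes asked whether these miRNAs differ between Bim3'UTRmut/mut and wild type lungs, on the log2 CPM scale. In CPM, 1 of 189 kept probes (0.529%) had every mutant below every wild type, and none of the members did. miR-433 was at 1592 ± 324 CPM in the mutants and 1910 ± 213 CPM in the wild types (SD, n = 4 and 5), a log2 fold change of -0.26 ± 0.18 (SE). miR-127 was at 1431 ± 260 CPM in the mutants and 1598 ± 436 CPM in the wild types, a log2 fold change of -0.16 ± 0.24. miR-434-5p and miR-434-3p had log2 fold changes of -0.23 ± 0.21 and -0.10 ± 0.17, and miR-136 and miR-431 of 0.03 ± 0.24 and 0.02 ± 0.15. None of the 6 passed in edgeR's quasi-likelihood test with Benjamini-Hochberg adjustment over all 189 probes (adjusted p = 0.997 for each). Of all 189 probes 0 passed (0% called), against 5 at an unadjusted p under 0.05 (2.65%), while DESeq2 gave 0 adjusted and 9 unadjusted. No member had an unadjusted p under 0.05 in either tool. The differences lay within the spread between samples of a genotype, which does not show that the genotypes are alike.

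As a group, 4 of the 6 probes read lower and 2 higher in the mutants, beside 59.8% of all kept probes reading lower. Their median log2 fold change was -0.13, beside -0.03 over the 189 probes. It was -0.02 without wild type 1, with 3 of the 6 probes lower, -0.23 without wild type 3, with all 6 lower, and -0.21 without mutant 7, with 5 lower. Scaling by housekeeping mRNAs moved the median of all probes to 0.11 and that of the 6 members to 0.02, with miR-434-3p at 0.05, and scaling by positive controls moved these medians to 0.08 and -0.06, so the signs of small changes hold only relative to the scaling. Since the panel measures whole lung, a change in expressing cells and one in miRNA per cell could not be told apart. Neither was established here. The log2 fold changes for miR-136 and miR-431 turned negative in several alternatives, listed in the closing part.

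Without mutant 8 and wild type 3, the log2 fold change was -0.29 ± 0.17 for miR-127, -0.20 ± 0.12 for miR-433, -0.14 ± 0.17 for miR-434-3p, -0.20 ± 0.19 for miR-434-5p, -0.05 ± 0.24 for miR-136 and 0.01 ± 0.16 for miR-431 (SE, 3 mutants against 4 wild types). The smallest adjusted p among these was 0.98 in edgeR's quasi-likelihood test, and 0 of 189 probes passed, with 53.4% of them reading lower and 6 at an unadjusted p under 0.05 (3.17%) and none of them a member. In these 7 samples the genotypes did not overlap for miR-433, at 1902, 1716 and 1610 CPM in mutants 6, 7 and 9, against 2058, 1989, 1934 and 2030 CPM in wild types 1, 2, 4 and 5. Every mutant lay below every wild type in 2.12% of kept probes, 4 of 189, and miR-433 was the only member among them. This separation rests on the label of wild type 5, whose value of 2030 CPM would lie among the mutants if the comment entry were followed. It also rests on the first lanes. In second lanes miR-433 moved by -0.39 in wild type 5, -0.22 in mutant 6 and 0.16 in wild type 1, as log2 of the share of kept counts. The shift in wild type 5 is larger than the step from its 2030 CPM to the 1716 CPM of mutant 7, so the separation does not hold across lanes.

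**Figure D3:**
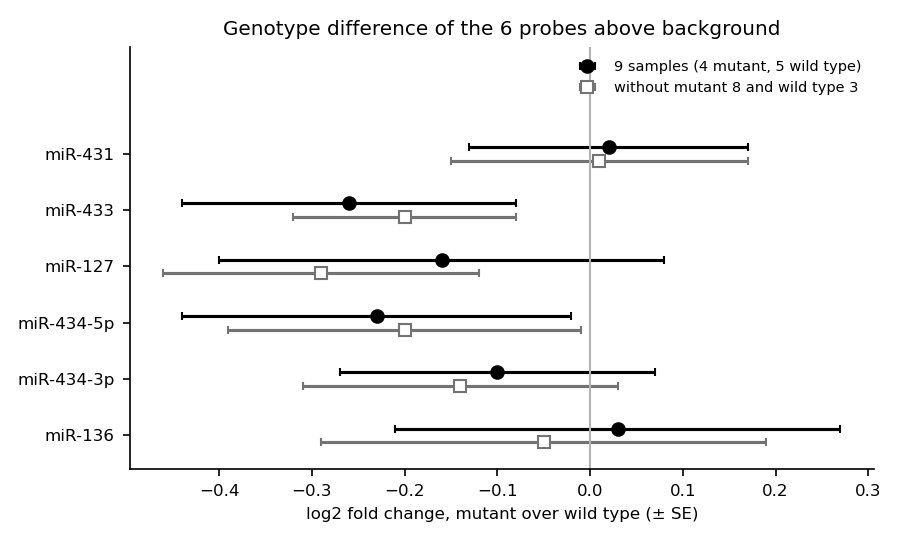
Log2 fold change of mutant over wild type with its SE for the 6 probes above background, from all 9 samples (filled) and without mutant 8 and wild type 3 (open). Estimates run from -0.26 to 0.03 in the first fit and from -0.29 to 0.01 in the second, and none passed adjustment.

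Lane background moved with several of these values, and its part in them was not tested beyond a fit with it as a covariate, given in the closing part. Splitting the samples by lane background was chosen after the data were seen. In the lower-background lanes (3 mutants and 3 wild types, among them mutant 8 and wild type 3), miR-433 averaged 1489 CPM in mutants and 1843 CPM in wild types, and in the higher-background lanes it stood at 1902 CPM in 1 mutant and averaged 2009 CPM in 2 wild types. miR-127 averaged 1446 and 1563 CPM in the mutants and wild types of the lower-background lanes, and 1384 and 1650 CPM in those of the higher-background lanes. For miR-136 the direction differed between the lanes, at 1257 CPM in mutants and 994 CPM in wild types of the lower-background lanes, against 659 CPM in 1 mutant and 1227 CPM in 2 wild types of the higher-background lanes. That 1 mutant is mutant 6, whose RNA gave a still lower miR-136 count in its second lane, of lower background.

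The repeat lanes show how far a value moves when the same RNA is run again. As log2 of the share of kept counts, the 6 probes moved by 0.00 to 0.59 between lanes, with a median of 0.26, where the median over all kept probes was 0.23 in mutant 6, 0.16 in wild type 1 and 0.19 in wild type 5. miR-431 was higher in the higher-background lane of every pair, by 0.59 in mutant 6, 0.41 in wild type 1 and 0.49 in wild type 5. miR-434-5p behaved alike, by 0.27, 0.47 and 0.50 in the same samples, as did miR-433, by 0.22, 0.16 and 0.39. miR-136 differed by 0.25, 0.16 and 0.00 in these samples, and miR-434-3p by 0.12, -0.15 and 0.11. miR-127 did not follow that direction, at -0.36 in mutant 6, 0.07 in wild type 1 and -0.29 in wild type 5. The largest of these shifts, 0.59 for miR-431 in mutant 6, exceeded every genotype difference given above. It is a shift of 1 RNA, whereas those are differences between group means, so the 2 are not like measures. For miR-431 itself the genotype difference was 0.02 ± 0.15 (SE).

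Arm use could be followed for miR-434 alone, the only precursor with both arms past the background filter. The 5p probe was itself below its lane's threshold in mutant 6 and in wild types 2, 3 and 5, so the ratios of these 4 samples rest on a value not told from background. The 3p probe exceeded the 5p probe in every sample. The count ratio of miR-434-3p to miR-434-5p was 2.68, 3.43, 4.29 and 3.02 in mutants 6 to 9, and 3.71, 2.71, 3.36, 2.87 and 2.40 in wild types 1 to 5. Because the probes may differ in efficiency, the size of the ratio does not give the share of each arm, and only its change between samples can be read. The log2 ratio was 1.72 ± 0.29 in the mutants and 1.57 ± 0.25 in the wild types (SD, n = 4 and 5), a difference of 0.15 ± 0.18 (SE; exact permutation test, two-sided p = 0.413, or 0.540 after adjustment over the 2 ratios tested). Without mutant 8 and wild type 3 the difference was 0.07 ± 0.17 (exact permutation test, p = 0.743), and with 1 sample left out it ran from 0.03 without mutant 8 to 0.25 without mutant 6, with 0.07 without wild type 5 and 0.23 without wild type 1. In the 5 samples with both arms above threshold the count ratios overlapped, at 3.43, 4.29 and 3.02 in mutants 7 to 9 and 3.71 and 2.87 in wild types 1 and 4. The lower ratios fell in lanes of higher background, and in the second lane of wild type 1, which had more background, the ratio was 2.42 in place of 3.71. For miR-337 and miR-540 both arms were on the panel but did not pass the filter, so their arm use was not read.

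miR-433 and miR-127 come from neighbouring precursors, 1007 bases apart, and their ratio within a lane needs no scaling between lanes. The log2 ratio of miR-127 to miR-433 was -0.46, 0.07, 0.26 and -0.45 in mutants 6 to 9, and -0.04, -0.14, -0.80, -0.10 and -0.44 in wild types 1 to 5. Mutant 8 and wild type 3 held the highest and the lowest value. The means were -0.15 ± 0.36 in the mutants and -0.30 ± 0.31 in the wild types (SD, n = 4 and 5), a difference of 0.16 ± 0.23 (SE; exact permutation test, two-sided p = 0.540). With 4 and 5 samples, the number of possible splits sets a floor under this p. Without mutant 8 and wild type 3 the difference was -0.10 ± 0.19 with an exact permutation p of 0.629. With 1 sample left out it ran from 0.02 without mutant 8 to 0.26 without mutant 6 or mutant 9, and it was 0.03 without wild type 3 and 0.09 without mutant 7. Between lanes of 1 RNA the log2 ratio was -0.46 in the first and 0.13 in the second lane of mutant 6, -0.44 and 0.24 in those of wild type 5, and -0.04 and -0.13 in those of wild type 1. In mutant 6 and wild type 5 it thus varied by more than the genotype means differed.

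**Figure D4:**
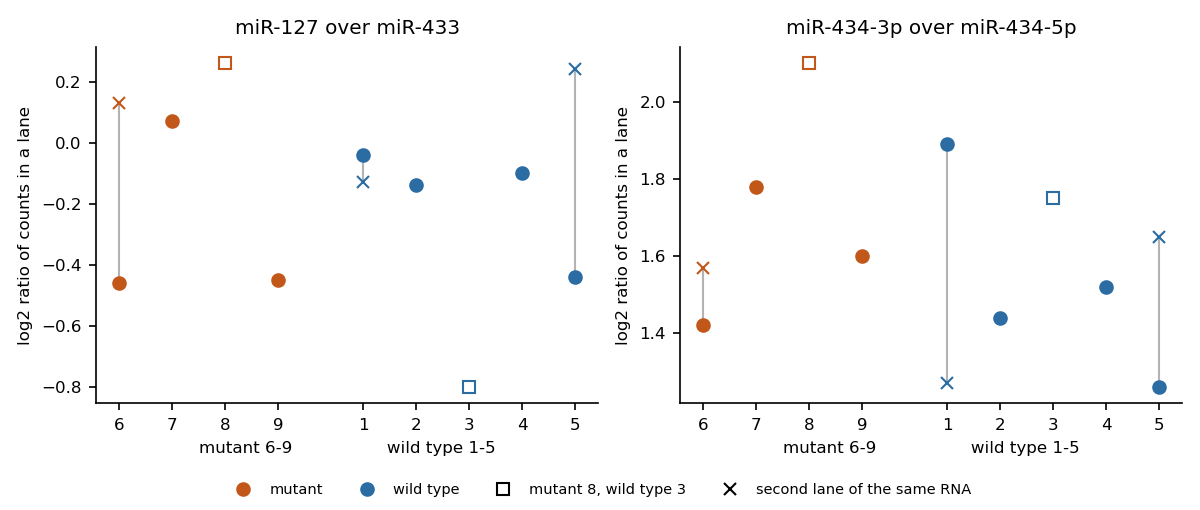
Log2 ratio of counts within a lane for miR-127 over miR-433 (left panel) and miR-434-3p over miR-434-5p (right panel), with mutants left and wild types right. Crosses joined by a line are second lanes of the same RNA, and open squares are mutant 8 and wild type 3. The genotypes overlap in both panels.

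Mutant 8 and wild type 3, the samples rich in cardiac miRNAs, were set beside the other 7 as a description, since the labels define no such group. miR-433 was at 1142 CPM in mutant 8 and 1538 CPM in wild type 3, both below the range of 1610 to 2058 CPM in the other 7 samples. miR-434-5p was at 326 and 383 CPM in mutant 8 and wild type 3, also below the other samples at 401 to 655 CPM. These were 2 of the 6 members. Over all kept probes, both samples lay below the other 7 in 20.1%, or 38 of 189.

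miR-127 separated the pair. It was at 1366 CPM in mutant 8, inside the range of 1177 to 1996 CPM of the other 7 samples, and at 886 CPM in wild type 3, below it and 54.1% of their mean. miR-136 was at 1087 and 820 CPM in mutant 8 and wild type 3, against 659 to 1465 CPM in the others. miR-431 was at 757 and 706 CPM, against 682 to 988 CPM, and miR-434-3p at 1396 and 1287 CPM, against 1213 to 2015 CPM, so these 3 probes stayed within the range. The median difference of the 6 probes from the mean of the other 7 was -0.18 log2 CPM in mutant 8 and -0.36 in wild type 3, beside -0.03 and 0.05 over the 189 probes. The miR-200 family fell much further in these samples, with miR-200c at 1607 and 1035 CPM in mutant 8 and wild type 3 and 11124 to 14372 CPM in the other 7. The part that the different tissue make-up of these samples has in the values of the 6 probes was not tested.

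**Figure D5:**
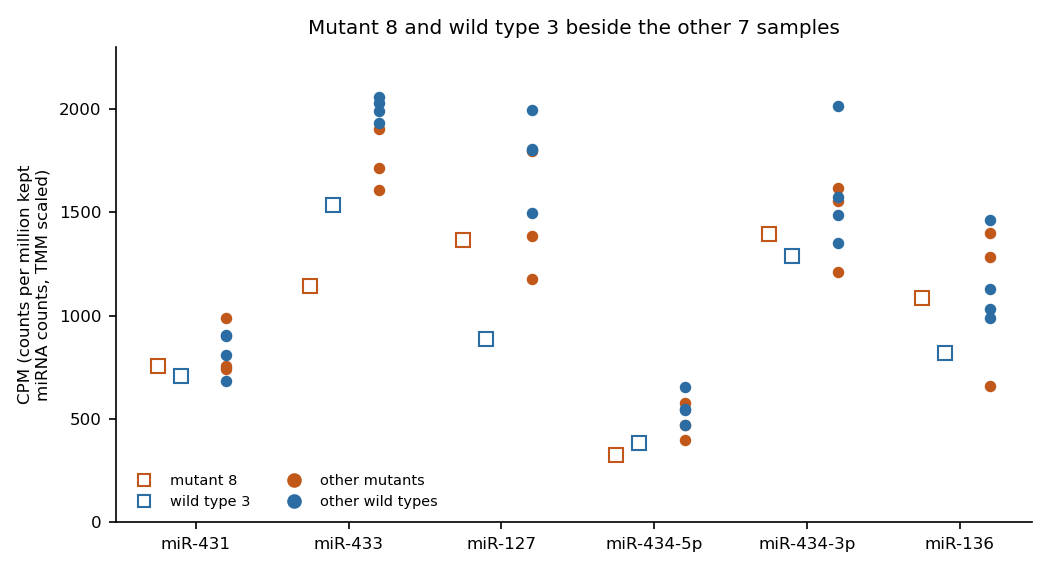
CPM of the 6 probes above background in mutant 8 and wild type 3 (open squares) and in the other 7 samples (filled circles). Both squares lie below the circles for miR-433 and miR-434-5p, wild type 3 alone for miR-127, and both lie within the circles' range for miR-431, miR-434-3p and miR-136.

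Across the other 7 samples miR-433 varied least of the 6, with a coefficient of variation of 8.86%, against 13.2% for miR-431, 15.9% for miR-434-5p, 16.2% for miR-434-3p, 17.7% for miR-127 and 24.4% for miR-136. The median SD of log2 CPM over these samples was 0.23 for the 6 members and 0.22 for all 189 probes. By the SD over the 9 samples of the difference in log2 CPM from miR-433, the nearest probe was miR-434-5p, at 0.13, followed by endothelial miR-126-3p and miR-204 at 0.15 each, where the median over all kept probes was 0.40. The other members lay at 0.25 to 0.46 from miR-433, and miR-136, at 0.46, was the only one beyond that median. Nearest to miR-127 were miR-411, of the same imprinted domain, at 0.16, let-7f at 0.18 and miR-23b at 0.23, against a median of 0.50. The other members lay at 0.27 to 0.40 from miR-127, all below that median, with miR-434-3p nearest as number 9 in that order. Within the other 7 samples the nearest probes to miR-127 were miR-329, miR-411 and let-7f at 0.15, 0.15 and 0.16. Those to miR-433 were miR-1944, miR-342-3p and miR-181a at 0.11 each. The medians over all kept probes were lower in these 7 samples, at 0.33 for miR-127 and 0.25 for miR-433.

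The other miRNAs of the Dlk1-Dio3 domain, most of them from the large cluster that runs from miR-379 to miR-410, had 51 probes on the panel, of which 21 passed the background filter. None passed the genotype test in either direction in edgeR (0 at an unadjusted p under 0.05), with 8 reading higher and 13 lower in the mutants and a median log2 fold change of -0.05. The most abundant were miR-382, miR-329 and miR-376c, with log2 fold changes of -0.13 ± 0.28, -0.25 ± 0.18 and -0.06 ± 0.31 (SE). miR-543 at -0.35 ± 0.19 and miR-495 at 0.20 ± 0.19 were, with miR-329, the probes of smallest p. In mutant 8 and wild type 3, 9 of these 21 probes were below the other 7 samples, beside the 20.1% of all kept probes given above. miR-382 had 450 and 368 counts in mutant 8 and wild type 3, against 784 to 1032 in the others. The median difference from the other 7 samples was -0.24 log2 CPM in mutant 8 and -0.47 in wild type 3, beside -0.03 and 0.05 over the 189 probes.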

How the data were processed

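The deposited values were raw nCounter counts per probe in 9 samples. The authors give no background step, filter or normalization in the sources used here. A second deposited table, per the file headers, holds the counts of 12 lanes of the NS_M_MIR_V1.5 panel, since 3 RNAs were run again. All 5634 counts of the sample table equalled those of the first lanes, which were used. Repeat lanes count as 1 replicate. Litter is not given, and a p-value here speaks only of the spread among these samples, which may be partly technical.

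Counts of the 189 kept mouse probes went into edgeR 4.0.16 under R 4.3.3, with TMM scaling and the quasi-likelihood test (glmQLFit, glmQLFTest) without covariates, at an adjusted p of 0.05. Log2 CPM used a prior count of 2. Ratios were tested by exact permutation with scipy 1.17.1. DESeq2 1.42.0, other scalings, filters, lanes, left-out samples and the genotype of wild type 5 were alternatives. The fit was tested on simulated data. Members and lists were chosen with earlier results of these data known. Named were every member, the 3 most abundant and 3 smallest-p probes of the other Dlk1-Dio3 list, the 3 probes nearest to miR-127 and to miR-433, and marker probes. The probes nearest over 7 samples were added after their values were seen. Sequences and their coordinates are from RefSeq, GRCm38.p6. The most abundant marker of the other lists, in counts, was in mutant 8 and wild type 3 against the other 7 samples: miR-1 (cardiac) 14021 and 9153 against 66 to 147, miR-206 (skeletal muscle) 187 and 71 against 62 to 116, miR-126-3p (endothelium) 17303 and 19097 against 25451 to 34642, miR-451 (erythroid) 1553 and 1228 against 1091 to 2641, miR-223 (myeloid) 186 and 187 against 327 to 597, miR-199a-3p (mesenchyme) 3375 and 3887 against 7195 to 11417, miR-122 (liver) 812 and 812 against 43 to 232, and miR-124 (neural) 77 and 69 against 41 to 181. A single marker need not follow its list: the 4 myeloid and lymphoid probes summed to 1748 and 629 against 898 to 1472, the 2 endothelial to 18039 and 19638 against 26174 to 35493, the 5 smooth muscle and mesenchymal to 14177 and 11912 against 16958 to 23767, the 3 erythroid to 2190 and 1853 against 1339 to 3002, and the 4 neural to 340 and 198 against 146 to 406.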

Additional observations from a re-analysis of the deposited data

Results flagged for a closer look

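Of 18 groups of values examined for a single sample far from the rest of its genotype, 2 held one, where chance gives about 1 in 20 groups. miR-431 in mutant 6 stood at 9.96 log2 CPM, against 9.58 in the nearest mutant. That lane had a mean negative control count of 66.8, against 33.6 to 39.5 in the other mutant lanes, and the second lane of mutant 6, with a mean of 29.4, gave 170 counts in place of 252. miR-433 in wild type 3 stood at 10.59 log2 CPM, against 10.92 in the nearest wild type. Wild type 3 is one of the 2 samples rich in cardiac miRNAs.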

How the results depend on the processing

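No probe passed in any of 24 alternatives to the genotype fit (smallest adjusted p 0.389), with 2 to 10 probes at an unadjusted p under 0.05. miR-127 was among these in 1 alternative, added after seeing the data, that counts wild type 5 as mutant and leaves out mutant 8 and wild type 3 (log2 fold change -0.35, adjusted p = 0.917 in edgeR). miR-127 and miR-433 read lower in the mutants in all 24, from -0.36 to -0.01 and from -0.36 to -0.11. With lane background as a covariate they stood at -0.17 and -0.26. In that fit miR-431 stood at 0.04, miR-434-5p at -0.21, miR-434-3p at -0.10 and miR-136 at 0.00. miR-136 changed sign in 11, at -0.00 with scaling by the 100 most abundant probes and with summed lanes, -0.03 with second lanes, -0.05 without mutant 8 and wild type 3, -0.12 without these and wild type 5, -0.04 with wild type 5 as mutant and -0.16 in the added alternative, and at -0.11 to 0.21 with 1 sample left out. miR-431 stood at -0.05 with summed lanes, -0.10 with second lanes and -0.09 to 0.06 with 1 sample left out. miR-434-3p stood at 0.05 with housekeeping scaling and -0.15 to 0.02 with 1 sample left out, and miR-434-5p at 0.02 in the added alternative. The difference in the miR-127 to miR-433 ratio was -0.10 without mutant 8 and wild type 3, and that of the miR-434 arms -0.02 with wild type 5 as mutant. The cause of these changes was not tested. The filter kept 5 to 8 members under its alternatives, with 8 at a threshold of the negative control mean plus 1 SD. No paired analysis was possible because the labels give no litter or other pairing of the samples. Low counts limit miR-434-5p most, with a counting error of 12.5% at its lowest count.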
